A study of Mus musculus with 2 samples.

Results

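The 74 genes described here were abundantly expressed in WT DP thymocytes and were at least 4-fold lower in *Cxxc1*-deficient DP thymocytes. They were chosen by 2 conditions on the RNA-seq values: a mean of the WT and *Cxxc1*-deficient libraries of at least 200, and a WT value at least 4 times the *Cxxc1*-deficient value, with the latter raised to at least 1. *Lck*, *Dntt*, *Hdac1* and a set of gene families recognised by their symbols, among them the *Cd*, *Rag* and ribosomal protein genes, were left out. Of the 21041 genes in the table, 867 had a mean of at least 200, 135 of these belonged to the left-out families or genes, and 732 remained. The 74 genes are 10.1% of these 732, a share that describes these 2 libraries only, since genes of 1 library are not independent. The other 658 abundant genes serve as the comparison. Because the same ratio chose the genes, their fold reductions are a description of the choice, and 0 of the 732 abundant genes were at least 4-fold higher in the *Cxxc1*-deficient library.

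Total RNA of DP thymocytes was sequenced as 1 mRNA library per genotype. Nothing here could be checked against replicates, and no test was run. The WT mice carried floxed *Cxxc1* alleles without Cre (*Cxxc1* fl/fl). The *Cxxc1*-deficient mice carried the same alleles and a Cre recombinase under the human *CD2* promoter (*Cxxc1* fl/fl h*CD2*-Cre), which acts in T-lineage cells from the early thymocyte stages onwards. The floxed allele was made in strain 129 ES cells and backcrossed to C57BL/6 over several generations, and the mice were a few weeks old unless the study specified otherwise. The genotype label of the deficient library reads Cxxc1+/-, whereas its title marks it as the knockout, and the title was used. The labels do not give the number of mice behind each library.

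CXXC1 (CFP1) is a subunit of the SETD1 histone methyltransferase complexes, which place trimethylation on lysine 4 of histone H3 at active promoters, and its CXXC domain binds unmethylated CpG. DP thymocytes, which express both CD4 and CD8, rearrange the T-cell receptor (TCR) alpha locus and are selected on the strength of TCR signals, so that surface receptors, signalling adaptors, recombination factors and chromatin organisers are prominent among their transcripts. DP thymocytes follow the double-negative (DN) stages and precede the single-positive (SP) stages.

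The values are the authors' normalized expression values in whole numbers. Their unit is not named, but the low values step by whole reads per length of transcript, and levels of different genes are set side by side on that scale. All genes had a median of 36 in both libraries. The steps between low values of short genes showed what 1 read per kb of transcript is worth, a value of 4.06 for WT and 4.70 for the deficient library, and with the longest annotated transcripts about 1465783 and 761434 reads on genes. The targeted gene *Cxxc1* was listed at 91 in WT and 50 in the deficient library, a ratio of 1.82 (approximate 95% interval 1.14 to 2.96). The library labelled as deficient therefore kept reads of the gene. In the paper, Cre removes only some exons of *Cxxc1*, whereas the values here are per gene. By qPCR the paper found the mRNA almost undetectable in deficient DP cells, and by western blot it reports loss of the protein. Which exons the remaining reads came from was not tested. Of the 732 abundant genes, 702 (95.9%) were lower in the *Cxxc1*-deficient library, 501 (68.4%) at least 2-fold, and the median fold reduction was 2.37. Over all genes above 0 in at least 1 library, 3.34% had a WT value at least 4 times the deficient value and 1.59% the reverse, and at 2 times these shares were 17.4% and 5.89%. The 20 Y-linked genes were all at 0 in WT, and 7 of them had a value in the deficient library. *Xist*, the RNA of the inactive X chromosome, had 2419 and 1021. Its ratio of 2.37 equals the median fold reduction of the abundant genes. A difference in the sex of the mice cannot be told apart from the genotype here.

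All 19 markers of DP thymocytes that were listed were detected in both libraries. All 19 were lower in the *Cxxc1*-deficient library, with a summed value of 58070 in WT and 18797 in the deficient library. Of these 19, 18 had a mean of at least 200, and 95.9% of the 732 abundant genes were lower as well. The 8 DN markers went from a sum of 422 to 907. Of these, *Il2ra* (63 and 207), *Notch3* (56 and 167) and *Notch1* (124 and 326) were each at least 2-fold higher in the *Cxxc1*-deficient library. Over all genes above 0 in at least 1 library, 5.89% were at least 2-fold higher. The other DN markers, *Hes1* (28 and 52), *Il7r* (32 and 42), *Dtx1* (37 and 41), *Kit* (35 and 36) and *Erg* (47 and 36), had intervals of the ratio that include 1. None of the DP or DN markers was at 0. The sums of the markers of mature SP cells were 1176 in WT and 519 in the deficient library, and 618 and 420 without *Gimap6*, which is a member. Those of B cells were 217 and 196, of erythroid cells 131 and 157, of macrophages and dendritic cells 275 and 268, of NK, innate and gamma-delta cells 186 and 209, and of thymic stroma 240 and 192. Most of these genes lie near the level of the 1122 olfactory receptor genes, whose medians were 22 in WT and 24 in the deficient library. Of the defining markers, *Hba-a1* was at 0 in both libraries and *Krt8* in the *Cxxc1*-deficient library. The part of these markers in the values below was not tested, and in RNA from a bulk sample, fewer cells of a type and less RNA per cell cannot be told apart.

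Promoter sequence was set out first, because CXXC1 binds CpG. In DP thymocytes the paper found CXXC1 binding enriched at CpG islands, but only a small part of the binding sites lay there. In its rescue assay, a CXXC1 mutant without DNA binding still allowed development from DN to DP cells. Printed here are the 250 bases before the start of 6 members, with every CG in capitals. These 6 were taken from 25 of the 30 members with the highest WT value, those that the RefSeq promoter table lists. They are the 3 poorest and the 3 richest in CpG for their base composition, by the highest ratio over all annotated starts. *Sla*, which is poorer than all 6, is not among the 25. The ranking does not hold for the printed starts alone. At the start shared by most transcripts, *Satb1* (0.128) and *Arhgdib* (0.268) had lower ratios than *Il21r* (0.298) and *Lat* (0.312).
Lat: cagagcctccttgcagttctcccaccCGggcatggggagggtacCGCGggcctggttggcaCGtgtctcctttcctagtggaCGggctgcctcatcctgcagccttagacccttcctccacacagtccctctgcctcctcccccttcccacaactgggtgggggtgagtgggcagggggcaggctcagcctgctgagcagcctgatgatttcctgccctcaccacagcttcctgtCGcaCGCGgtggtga
Il21r: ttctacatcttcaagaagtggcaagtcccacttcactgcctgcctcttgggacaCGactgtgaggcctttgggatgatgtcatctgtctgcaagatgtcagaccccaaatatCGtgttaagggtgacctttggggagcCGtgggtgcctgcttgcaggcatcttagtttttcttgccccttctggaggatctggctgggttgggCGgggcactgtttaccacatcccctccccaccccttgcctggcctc
P2ry10: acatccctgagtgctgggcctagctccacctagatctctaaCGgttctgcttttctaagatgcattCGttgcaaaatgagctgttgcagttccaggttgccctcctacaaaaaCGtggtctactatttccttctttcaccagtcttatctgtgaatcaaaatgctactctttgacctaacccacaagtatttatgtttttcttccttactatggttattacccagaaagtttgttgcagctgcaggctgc
Glcci1: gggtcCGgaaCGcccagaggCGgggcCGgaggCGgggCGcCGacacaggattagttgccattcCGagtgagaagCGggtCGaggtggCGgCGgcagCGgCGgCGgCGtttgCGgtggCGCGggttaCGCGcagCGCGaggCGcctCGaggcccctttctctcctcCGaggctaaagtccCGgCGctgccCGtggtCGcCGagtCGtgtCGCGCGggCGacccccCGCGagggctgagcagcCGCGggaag
Rmnd5a: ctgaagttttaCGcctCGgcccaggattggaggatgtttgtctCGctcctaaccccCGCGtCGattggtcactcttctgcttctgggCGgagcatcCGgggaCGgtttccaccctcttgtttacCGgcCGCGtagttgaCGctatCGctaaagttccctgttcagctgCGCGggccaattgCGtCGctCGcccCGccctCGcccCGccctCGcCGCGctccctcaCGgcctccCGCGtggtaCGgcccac
Snrnp70: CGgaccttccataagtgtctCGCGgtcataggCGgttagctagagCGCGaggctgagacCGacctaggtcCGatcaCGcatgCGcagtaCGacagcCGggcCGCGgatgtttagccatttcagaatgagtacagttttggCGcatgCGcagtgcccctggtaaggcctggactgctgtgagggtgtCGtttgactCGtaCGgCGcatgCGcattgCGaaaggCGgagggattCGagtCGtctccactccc
These are 5′ to 3′ on the strand of the gene, from the mouse genome mm9 (NCBIM37) with starts from GENCODE vM1. The window of *Lat* is chr7:133513058-133513307 (minus strand) and that of *Il21r* chr7:132746693-132746942 (plus strand). The window of *P2ry10* is chrX:104283581-104283830 (plus strand), that of *Glcci1* chr6:8459350-8459599 (plus), that of *Rmnd5a* chr6:71390632-71390881 (minus) and that of *Snrnp70* chr7:52651063-52651312 (minus). No annotated exon lies in any of the 6 windows. The windows hold 8 CG in *Lat*, 4 in *Il21r* and 3 in *P2ry10*, against 40 in *Glcci1*, 29 in *Rmnd5a* and 25 in *Snrnp70*. These 6 genes had fold reductions between 4.40 (*Rmnd5a*) and 6.33 (*Il21r*). They were picked as the extremes of CpG, so the presence of both kinds follows from that choice. Other annotated starts of *Glcci1*, *Rmnd5a* and *Snrnp70* had observed to expected CpG ratios as low as 0.251, 0.082 and 0.328.

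The 74 genes ranged from 348 to 6080 in WT, with a median of 615.5, and from 46 to 1492 in the *Cxxc1*-deficient library, with a median of 130.5. Their fold reductions ran from 4 to 9.04, with a median of 4.80, beside 2.28 over the other 658 abundant genes. Of the 74 genes, 45 lay between 4- and 5-fold, 19 between 5- and 6-fold and 10 at or above 6-fold. None was listed at 0 in the *Cxxc1*-deficient library, and 53 of the 74 kept a value of at least 100 there. Together they summed to 67487 in WT, 4.35% of the sum over all genes, and to 14025 in the *Cxxc1*-deficient library, 1.43% of that sum. The other abundant genes made up 23.4% and 16.7%. The WT level of a member bore little relation to its fold reduction (Spearman's rank correlation 0.035 across the 74 genes, a description, since genes of 1 library are not independent). Both quantities come from the values that chose the genes, and the fold reduction is cut off at 4, so this correlation describes the choice. Across the 732 abundant genes the rank correlation between mean and fold reduction, both computed from the same WT and deficient values, was 0.28. Members accordingly made up 5.57% of the 395 genes with a mean from 200 to 300, 12.4% of 209 from 300 to 500, 18.6% of 102 from 500 to 1000, and 26.9% of the 26 genes at 1000 or above.

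**Figure D1:**
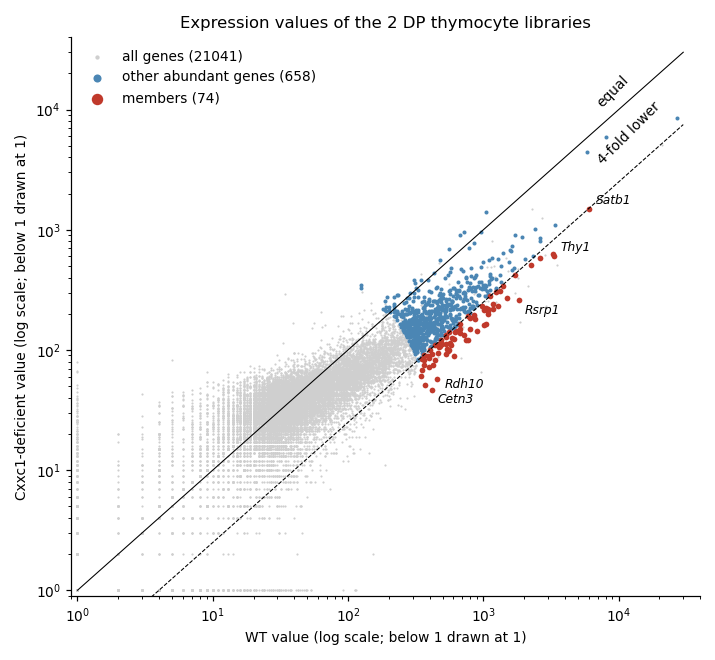
Expression value of each of the 21041 genes in the WT library (horizontal, log scale) and the *Cxxc1*-deficient library (vertical, log scale), with values below 1 drawn at 1. The 74 members (red) lie on or below the dashed line of 4-fold reduction, the 658 other abundant genes (blue) mostly between it and the solid line of equality, and abundant genes of the left-out families stay grey.

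The 4 T-cell surface receptors in the set had medians of 1826 in WT and 373.5 in the deficient library. *Thy1*, the glycolipid-anchored surface protein that marks T-lineage cells in the mouse, was listed at 3350 in WT and 607 in the deficient library, a fold reduction of 5.52 (approximate 95% interval 4.79 to 6.38). *Ccr9*, the receptor for the thymic chemokine CCL25, had 2614 and 583 (4.48, interval 4.01 to 5.03). *Il21r*, which pairs with the common gamma chain to bind interleukin 21, had 1038 and 164, a fold reduction of 6.33 (5.07 to 7.96). Its partner *Il2rg* was abundant as well and had 840 and 336, a fold reduction of 2.50. *P2ry10*, a lysophospholipid receptor gene on the X chromosome, had 902 and 145 (6.22, interval 4.98 to 7.86). *Il21r* and *P2ry10* therefore kept about 15.8% and 16.1% of their WT value, whereas *Ccr9* kept 22.3%.

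Adaptors and signalling proteins formed the largest group, with 16 genes, a median of 708.5 in WT and 132 in the deficient library and a median fold reduction of 5.07. *Lat*, the transmembrane scaffold that ZAP70 phosphorylates, had 1075 in WT and 198 in the deficient library, a fold reduction of 5.43 (4.05 to 7.44). *Trat1*, which stabilises the TCR complex at the surface, had 575 and 110 (5.23, interval 4.16 to 6.67). *Pag1*, the raft adaptor that recruits the inhibitory kinase CSK, had 790 and 185 (4.27, interval 3.78 to 4.82). The remaining transmembrane adaptors of lymphocytes were less abundant and showed smaller ratios: *Lime1* had 114 and 67 (1.70), *Sit1* 125 and 90 (1.39) and *Lax1* 155 and 118 (1.31). The intervals of *Sit1* (0.828 to 2.51) and *Lax1* (0.949 to 1.88) include 1. Of the cytosolic adaptors, 2 were members and their relatives were not. In both kinds of adaptor the choice itself separates members from relatives by ratio and level. *Sla*, which encodes SLAP, an adaptor that targets the TCR zeta chain for degradation in DP cells, had 1292 and 231 (5.59, interval 4.97 to 6.30). *Grap*, a GRB2-related adaptor, had 743 and 121 (6.14, interval 4.42 to 8.60). Their relatives *Grap2* (393 and 209), *Sla2* (235 and 158) and *Grb2* (99 and 67) had ratios of 1.88, 1.49 and 1.48.

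The most abundant gene of the signalling group was *Arhgdib*, a haematopoietic regulator of the cytoskeleton, with 3289 in WT and 625 in the deficient library (5.26, interval 4.49 to 6.21). The ubiquitous *Arhgdia* had 260 and 124. *Glcci1*, a glucocorticoid-induced transcript, had 1505 and 272, a fold reduction of 5.53 (4.96 to 6.21). The serine/threonine kinase gene *Stk17b* had 977 and 231. *Ppp1cb*, a catalytic subunit of protein phosphatase 1, had 851 and 194, whereas *Ppp1ca* had 355 and 131, a ratio of 2.71. *Gimap6* and *Gimap9*, GTPases of immune-associated proteins that lie 22467 bases apart on chromosome 6, had 558 and 99 (5.64) and 352 and 68 (5.18). Of the other *Gimap* genes, *Gimap8* had 284 and 76 (3.74, interval 2.81 to 5.06, which overlaps that of *Gimap9*, 3.21 to 8.78), *Gimap4* 71 and 36 (1.97), *Gimap3* 32 and 33, *Gimap1* 213 and 116 (1.84), *Gimap5* 129 and 109 (1.18), and *Gimap7* 48 in both libraries. *Rap2c*, *Prkar1a*, *Sdcbp*, *Frat2* and *Lsp1* completed the group, with WT values from 361 (*Lsp1*) to 674 (*Rap2c*).

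**Figure D2:**
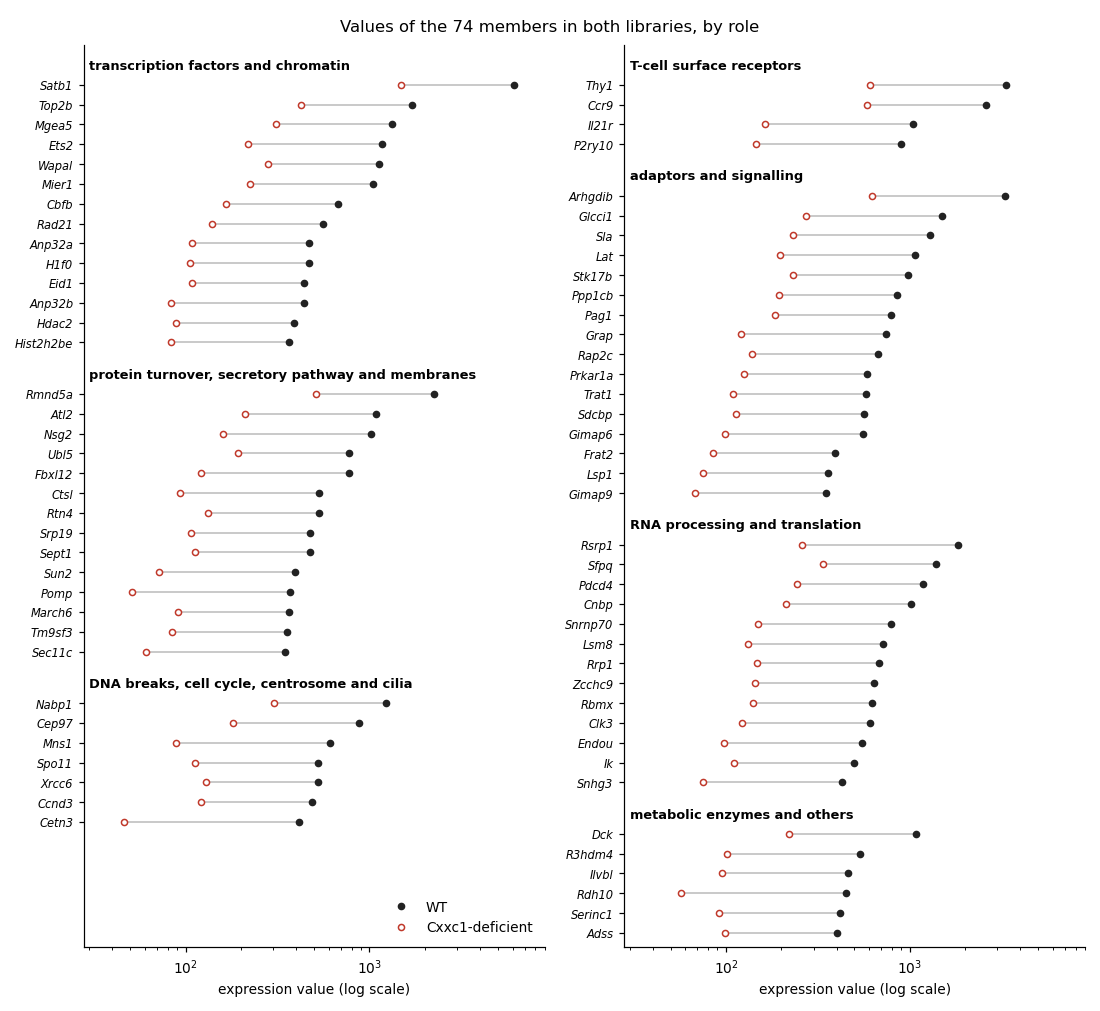
Expression value (log scale) of each of the 74 members in WT (filled black) and *Cxxc1*-deficient DP thymocytes (open red), grouped by known role and ordered by WT value within each role. Every open point lies at least 4-fold below its filled point, from *Satb1* (6080 and 1492) to *Sec11c* (348 and 61).

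Transcription factors and chromatin proteins numbered 14, with medians of 617.5 and 152.5. Their median fold reduction of 4.298 was the smallest of the 7 roles, and their highest was 5.39. *Satb1*, a chromatin organiser needed for DP gene regulation, was the most abundant member, with 6080 in WT and 1492 in the deficient library (4.08, interval 3.88 to 4.28). It held rank 5 of the 21041 genes in the *Cxxc1*-deficient library and rank 4 in WT. *Ets2* had 1175 and 218 (5.39, interval 4.61 to 6.35), beside *Ets1* with 1677 and 479 (3.501), *Elf1* with 1033 and 350 (2.95), *Gabpa* with 489 and 171 (2.86) and *Fli1* with 307 and 170 (1.81). *Ets2* was the only one of these 5 abundant genes past 4-fold. *Cbfb*, the non-DNA-binding partner of the RUNX proteins, had 674 and 165 (4.08, interval 3.29 to 5.11). Its partner *Runx1* had 490 and 319 (1.54), and *Runx2* (56 and 85) and *Runx3* (46 and 73) had higher values in the *Cxxc1*-deficient library.

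*Top2b*, the topoisomerase II of non-dividing cells, had 1708 in WT and 424 in the deficient library (4.03, interval 3.66 to 4.44), whereas *Top2a*, the enzyme of dividing cells, had 103 and 78. Cohesin, the ring complex that holds sister chromatids and forms chromatin loops, was represented by its kleisin subunit *Rad21* (561 and 140, 4.01-fold) and by *Wapal*, its release factor (1127 and 281, 4.01-fold). *Smc3*, another ring subunit, stood just outside the choice with 610 and 153 (3.99-fold). *Smc1a* had 640 and 235 (2.72), *Stag1* 321 and 121 (2.65), *Stag2* 456 and 179 (2.55), the loader *Nipbl* 794 and 360 (2.21), *Pds5b* 221 and 104 (2.13) and *Pds5a* 277 and 163 (1.70). Of the 9 cohesin genes, 8 were at least 2-fold lower, beside 68.4% of all abundant genes. The 8 include *Pds5b*, which with a mean of 162.5 is not an abundant gene, so the sets differ. The intervals of *Rad21* (3.25 to 4.996) and *Smc3* (3.35 to 4.76) overlap almost entirely. *Hdac2*, a class I histone deacetylase, had 389 and 89 (4.37). The histone chaperone genes *Anp32b* (439 and 83, 5.29) and *Anp32a* (470 and 108, 4.35) were members, and the third gene of the family, *Anp32e*, was the most abundant of them with 1247 and 329 (3.79). *Mgea5*, the enzyme that removes O-GlcNAc, had 1324 and 312 (4.24), and *Mier1*, a corepressor that binds histone deacetylases, had 1045 and 223 (4.69). The linker histone gene *H1f0* (469 and 105), *Hist2h2be* (364 and 83) and *Eid1* (442 and 109) were at the low end. The annotation used here holds *H1f0* only as a pseudogene model of 534 bases, so its number of reads and its interval are uncertain.

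RNA processing and translation accounted for 13 members, with medians of 677 and 144 and a median fold reduction of 4.88. *Rsrp1*, an arginine/serine-rich protein gene, had 1826 in WT and 259 in the deficient library, a fold reduction of 7.05 (6 to 8.32), the highest of any member with a WT value of 1000 or more. *Sfpq*, a paraspeckle protein of splicing and transcription, had 1390 and 339 (4.1003, interval 3.57 to 4.71). The related *Pspc1* (196 and 59) and *Nono* (49 and 15) had ratios of 3.32 and 3.27. *Pdcd4*, an inhibitor of the translation factor eIF4A, had 1186 and 243 (4.88, interval 4.02 to 5.94), and *Cnbp*, a zinc-finger protein that binds RNA, had 1019 and 213. *Snrnp70*, the U1 snRNP protein, had 792 and 149 (5.32, interval 3.97 to 7.26). *Clk3*, a kinase of splicing factors, had 610 and 123 (4.96), whereas *Clk4*, *Clk2* and *Clk1* had ratios of 2.84, 2.79 and 2.60. *Endou*, a uridylate-specific endoribonuclease expressed in DP cells, had 547 and 98 (5.58, interval 4.14 to 7.69). *Lsm8*, of the nuclear LSM ring on U6 RNA, had 714 and 132 (5.41). The ratio of *Snhg3*, a host transcript of small nucleolar RNAs with 427 and 75, is uncertain, because it shares exons on its strand with *Rcc1* and *Snora73a* and its interval runs from 2.89 to 13.4.

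The 7 genes of DNA breaks, the cell cycle, the centrosome and cilia had medians of 528 and 122. *Cetn3*, a centriole protein, had the highest fold reduction of the set, 9.04, with 416 in WT and 46 in the deficient library. Only about 10 reads lie behind the latter value, and the interval runs from 4.596 to 18.9. *Mns1*, known from sperm flagella and motile cilia, had 611 and 89 (6.87, interval 4.82 to 10.2), and *Spo11*, the nuclease of meiotic DNA breaks, had 528 and 112 (4.71, interval 3.75 to 6.02). Transcripts of both genes were abundant in these thymocytes. *Nabp1*, a single-strand DNA binding protein of the damage response, had 1237 and 303 (4.08, interval 3.48 to 4.82), and *Cep97*, a suppressor of cilium formation, had 874 and 180. *Xrcc6*, the Ku70 subunit of the end-joining machinery that repairs breaks made by the RAG nuclease, had 526 and 129 (4.08). Its partner *Xrcc5* had 67 and 40. *Ccnd3*, the D-type cyclin of proliferating thymocytes, stood at the threshold with 488 and 122 (4-fold, interval 2.97 to 5.44), beside *Ccnd1* (49 and 37) and *Ccnd2* (44 in both).

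Protein turnover, the secretory pathway and membranes held 14 members, with medians of 504 and 110. *Rmnd5a*, a RING subunit of the CTLH ubiquitin ligase, had 2256 in WT and 513 in the deficient library (4.40, interval 4.05 to 4.79). Among the other CTLH genes, *Wdr26* (1034 and 320, 3.23) had the nearest ratio. *Pomp*, the chaperone of proteasome assembly, had 370 and 51, a fold reduction of 7.25 that rests on about 8 reads in the *Cxxc1*-deficient library (3.46 to 17.4). *Nsg2*, a vesicle protein better known from neurons, had 1019 and 160 (6.37, interval 5.01 to 8.22). *Fbxl12*, an F-box protein, had 776 and 122 (6.36, interval 5.22 to 7.88), and *Ubl5*, a ubiquitin-like splicing modifier, had 776 and 192 (4.04). These 2 genes overlap by 1890 bases on opposite strands, so without strand in the counting their reads cannot be told apart. *Atl2*, an atlastin of the endoplasmic reticulum, had 1081 and 211 (5.12), *Ctsl*, a lysosomal protease, 533 and 93 (5.73), and *Sec11c*, of the signal peptidase, 348 and 61 (5.70, interval 3.99 to 8.31). *Sun2*, of the nuclear envelope, had 394 and 72 (5.47), and *Sun1* had 63 and 40.

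The remaining 6 genes were metabolic enzymes and others. *Rdh10*, the retinol dehydrogenase that makes retinaldehyde, had 451 in WT and 57 in the deficient library, a fold reduction of 7.91 (5.84 to 11.2). *Dck*, the kinase that salvages deoxycytidine, had 1081 and 220 (4.91, interval 4.11 to 5.91). *Ilvbl* (463 and 95), *R3hdm4* (537 and 101), *Serinc1* (419 and 92) and *Adss*, of AMP synthesis (400 and 99), had ratios from 4.04 (*Adss*) to 5.32 (*R3hdm4*).

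The threshold cut through a continuous range. *Ccnd3* and *March6* (364 and 91) were exactly at 4-fold, and *Rad21*, *Wapal* and *Rtn4* (531 and 132) were the next inside. *Vapa* (331 and 83), *Smc3*, *Haus3* (609 and 154), *Sfr1* (328 and 83) and *Csnk1a1* (635 and 161) were the nearest outside, at 3.94 to 3.99. At the mean of 200, *Sec11c* (204.5), *Gimap9* (210), *Pomp* (210.5), *Lsp1* (218) and *Tm9sf3* (219) were just inside, and *E2f2* (195.5), *Max* (194.5), *Plgrkt* (193), *Tmed9* (192) and *Ddit4* (188) just outside with ratios of 4.15 to 4.41. With the reads estimated for the longest transcript, 28 of the 74 genes had an interval wholly above 4 and 46 had one that held 4. Of the 656 other abundant genes with a length, 90 had an interval that reached 4, so membership near the threshold is not resolved at this depth. The reads behind a member had a median of 477 in WT and 87.6 in the deficient library.

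**Figure D3:**
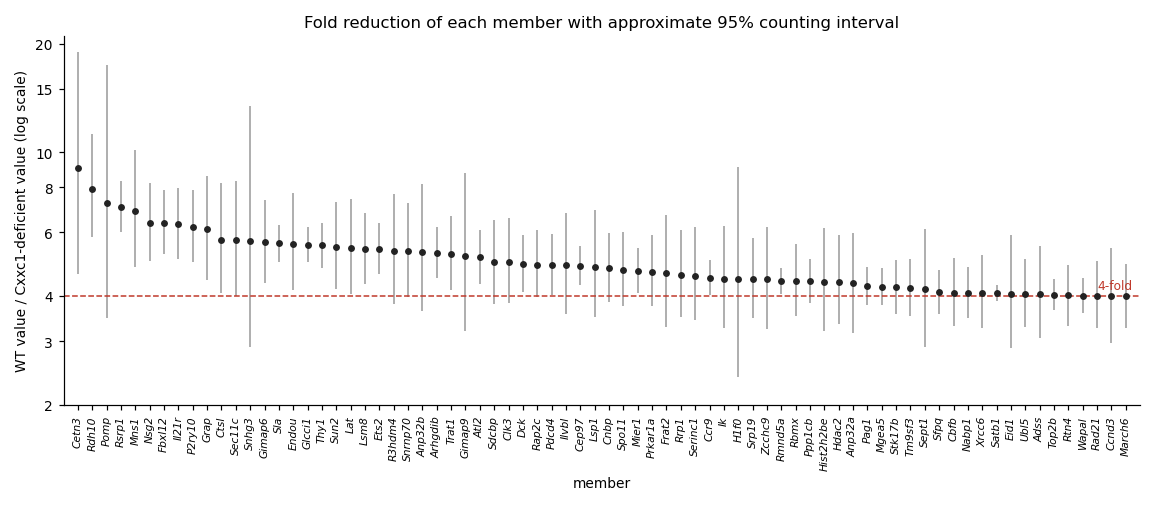
WT value divided by *Cxxc1*-deficient value (log scale) for each of the 74 members, from *Cetn3* (9.04) to *March6* (4), with bars for the approximate 95% Clopper-Pearson interval from counting error. The bars of 46 genes reach the dashed line at 4-fold, and those of *Snhg3*, *Pomp* and *Cetn3*, which have few reads, are among the widest.

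Lists of related genes place these members among their pathways. Of 42 measured genes of the DP stage and T-cell identity, 28 were abundant and 38 lower in the *Cxxc1*-deficient library, with a median log2 ratio of −1.27, beside −0.20 over all genes (60.0% of them lower) and −1.24 over the 732 abundant genes (95.9% lower). Of the 28 abundant genes, 10 were at least 4-fold lower with the left-out *Dntt* counted, beside 11.2% of the 867 abundant genes of all families. The other 9 are members, in a list chosen with earlier results of these data known: *Mns1*, *Endou*, *Thy1*, *Ets2*, *Trat1*, *Spo11*, *Ccr9*, *Rmnd5a* and *Satb1*. In the same list *Myb* (2621 and 848), *Ikzf1* (1575 and 682) and *Tcf7* (5826 and 4461) were less reduced, and *Tox* had 287 and 300. Of 48 TCR signalling genes, 16 were abundant and 45 lower, beside 60.0% of all genes and 95.9% of the 732 abundant genes. Their median log2 ratio was −1.09, beside the same −0.20 and −1.24. Of the 16, 5 were at least 4-fold lower, beside the same 11.2%: the left-out *Lck* and the members *Sla*, *Lat*, *Trat1* and *Pag1*. *Rasgrp1* (1350 and 498), *Nfatc3* (1399 and 645) and *Lcp2* (562 and 235) had ratios under 3. Of 61 genes of chromatin modification, 26 were abundant and 55 lower (median log2 ratio −1.02), beside the same shares and medians. Of the 26, 5 were at least 4-fold lower, beside the same 11.2%, and all are members: *Anp32b*, *Hdac2*, *Anp32a*, *Satb1* and *Rad21*. *Ezh2* (477 and 132) and *Suz12* (482 and 168) were also lower, whereas *Ep300* (270 and 249), *Arid1a* (318 and 326) and *Kmt2a* (201 and 229) had nearly equal values.

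In the remaining lists the members were too few to set against the share of 10.1% over all abundant genes. They were 1 of 17 abundant cytoskeletal genes (*Arhgdib*), 1 of 2 abundant cell cycle genes (*Ccnd3*), 1 of 4 nuclear and long noncoding RNAs (*Snhg3*), 1 of 10 mRNA-binding proteins (*Sfpq*), 1 of 6 apoptosis genes (*Pdcd4*) and 2 of 10 interferon, MHC and immune surface genes (*Gimap6* and *Gimap9*). *Cdc42*, *Cdkn1b* and *Ptprc*, which the choice left out, are among the abundant genes counted in these lists. No member was found among 4 abundant genes of ubiquitin and SUMO or 5 of the secretory pathway, and 0 of 24 glycolytic and core metabolic genes were abundant. *B2m*, the light chain of MHC class I and part of the interferon, MHC and immune surface list, had 964 in WT and 965 in the deficient library. In all of these lists only uniquely mapped reads were counted, and low values of genes with many processed copies, such as *Hmgb1* at 0 in both libraries, cannot be read as absence.

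The members had shorter transcripts than the other abundant genes. The longest annotated transcript had a median of 2884 bases over the 74 members and 4371.5 over 656 other abundant genes, with 8 and 11 exons and gene spans of 19379.5 and 40817 bases. Over all genes the median transcript was 2671 bases. With the abundant genes divided by length into 4 classes of equal size, members made up 37 of 183 in the shortest class (20.2%), 23 of 182 in the next (12.6%), and 6 of 182 (3.30%) and 8 of 183 (4.37%) in the longer classes. The difference in transcript length was present at each level: it was 2471.5 against 4505.5 bases at means from 200 to 300, 2828 against 4311 from 300 to 500, 3465 against 3960 from 500 to 1000, and 3051 against 4833.5 above. Gene spans were shorter in members at means under 1000, but at 1000 and above the 7 members had a median span of 52004 bases and the 19 other genes 34516. The median fold reduction of all abundant genes went from 2.81 in the shortest class through 2.61 and 2.33 to 2.11 in the longest. Length and fold reduction had a Spearman's rank correlation of −0.28 over 730 abundant genes and −0.20 over the 135 left-out genes of the named families, which the choice did not use. All genes here share the same 2 libraries. Shorter transcripts also carry fewer reads, and the median reads in the *Cxxc1*-deficient library were 75.05, 132, 193 and 327 from the shortest to the longest class. The part of read number in the relation was not tested.

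**Figure D4:**
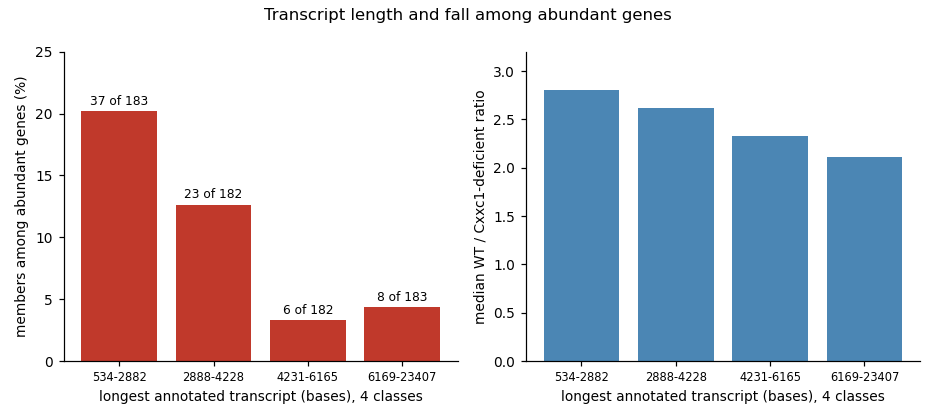
Abundant genes in 4 classes of equal size by the length of their longest annotated transcript (bases). The left bars give the percentage that are members, 20.2% in the shortest class and 4.37% in the longest, and the right bars give the median WT to *Cxxc1*-deficient ratio, 2.81 and 2.11.

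Promoters of the members were compared with those of the other abundant genes in their CpG content. In the window from 250 bases before to 50 after the start, the observed to expected CpG ratio had a median of 0.78 in the 74 members, 0.84 in 656 other abundant genes and 0.59 in all genes, and GC content had medians of 60.3%, 63.7% and 56.7%. A ratio of at least 0.6 was found for 54 members (73.0%), 76.7% of the other abundant genes and 49.3% of all genes. A ratio under 0.4 was found for 16 members (21.6%) and 95 other abundant genes (14.5%). Many genes have several annotated starts, and *Satb1* and *Rmnd5a* have CpG-rich and CpG-poor ones. With the highest ratio over all starts of a gene, 10 members (13.5%) and 45 other abundant genes (6.86%) stayed under 0.4. These 10 were *Sla*, *Lat*, *Il21r*, *Grap*, *Trat1*, *Gimap6*, *Endou*, *Sept1*, *Lsp1* and *Gimap9*, with fold reductions from 4.18 (*Sept1*) to 6.33 (*Il21r*). In the RefSeq promoter table, which held 54 of the members, 68.5% of members and 81.0% of the other abundant genes were at 0.6 or above (medians 0.769 and 0.851), and 20.4% and 11.0% were under 0.4. Across the members the CpG ratio bore little relation to the fold reduction (Spearman's rank correlation −0.02), which the choice cuts off at 4. Over 730 abundant genes, without that cut, the rank correlation was 0.03.

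**Figure D5:**
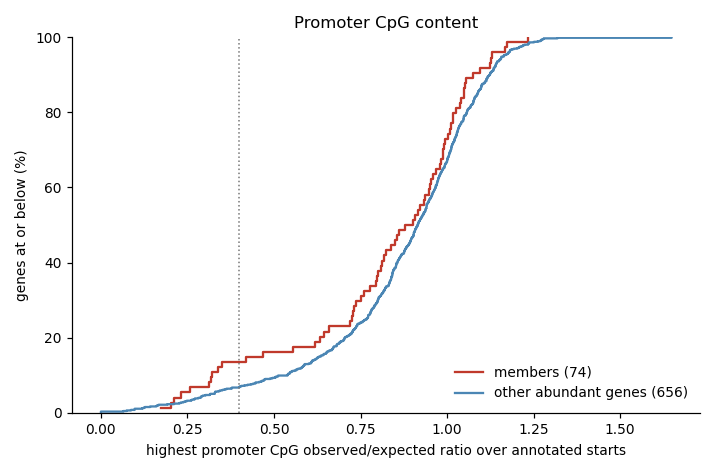
Cumulative percentage of genes (vertical) at or below a given CpG observed to expected ratio (horizontal), taking the highest ratio over all annotated starts of each gene. The curve of the 74 members (red) lies above that of 656 other abundant genes (blue) at the dotted line of 0.4, with 13.5% and 6.86% below it.

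Short motifs were searched on both strands of the same windows. GGGCGG, the GC box, was found in 59.5% of members, 66.9% of other abundant genes and 47.8% of all genes. CCAAT was found in 44.6%, 34.6% and 38.0%, the ETS core CCGGAAG in 16.2%, 15.1% and 11.5%, and TATAAA in 12.2%, 6.10% and 12.7%. TGTGGT, the core of RUNX sites, was found in 11 members (14.9%), 9.30% of other abundant genes and 14.2% of all genes, and *Lat*, *Il21r*, *P2ry10* and *Trat1* were among the 11. AGGTCA, a nuclear receptor motif, was found in 13.5%, 9.76% and 13.8%, and the E-box CANNTG, the broadest motif, in 56.8%, 54.6% and 67.9%. The palindromic NRF1 motif (GCGC, then AT, then GCGC) was found in 4 members (*Cbfb*, *Pdcd4*, *Snrnp70* and *Spo11*; 5.41%), 2.90% of other abundant genes and 1.28% of all genes, and the 250 bases printed for *Snrnp70* hold it 2 times. AAGATGGC, a YY1 motif, was found in 1 member (*Ik*; 1.35%), 7.01% of other abundant genes and 3.30% of all genes, and TGACGTCA in 0 members and 2.59% of other abundant genes. With 74 promoters, 1 gene changes these shares by more than a percentage point.

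The members were spread over the genome, with 7 of 37 abundant genes on chromosome 6, 7 of 39 on chromosome 15, 7 of 48 on chromosome 9, 2 of 74 on chromosome 2 and 0 of 27 on chromosome 12. Apart from the *Gimap* pair and *Fbxl12* with *Ubl5*, no members lay within 100 kb of each other. An exon of another gene on the opposite strand overlapped 18 of the 74 members (24.3%) and 25% of the other abundant genes.

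Another scaling of the libraries changes which genes pass. With both libraries brought to the same sum, which multiplies the *Cxxc1*-deficient values by 1.58, 8 genes met both conditions: *Cetn3* (5.72), *Rdh10* (5.005), *Pomp* (4.59), *Rsrp1* (4.46), *Mns1* (4.34), *Nsg2* (4.03), *Fbxl12* (4.02) and *Il21r* (4.003). All 8 were among the 74. With the same 75th percentile (a factor of 1.31), 26 of the 74 met them, *Thy1* (4.22), *Lat* (4.15) and *Ets2* (4.12) included and *Satb1* not.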

How the data were processed

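mRNA was sequenced from DP thymocytes, 1 library per genotype. Reads of both libraries were mapped by the authors to the mouse genome mm9, and uniquely mapped reads were summarised per gene with the Partek software. The submitters' processing notes name CASAVA 1.8.2, Bowtie 1.0.1 and Partek; the gene annotation is not given in the sources used here. As deposited, each gene has 1 score per library, a normalized expression level in whole numbers whose unit the authors do not name. The libraries' values sum to 1551994 (WT) and 981677 (*Cxxc1*-deficient).

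Ratios are WT over deficient values as deposited, each raised to at least 1. No test was run, because each genotype has 1 library. The members and gene lists were chosen with earlier results of these data known, and roles and families were assigned after the names of the members had been seen. The rule for named genes was that every member may be named, with full values for the 12 highest in WT, the 12 highest ratios, the 5 nearest each threshold (and 5 outside the 4-fold threshold), list members and the genes with printed promoters. Relatives of members, genes just below the mean threshold and list genes that are no members were named after their values were seen.

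The value of 1 read was estimated from the deposited whole numbers on genes with 1 annotated transcript length between 400 and 1100 bases. Of 1312 such genes in WT, 88.3% fell within 0.2 reads of a whole number, and of 1813 in the *Cxxc1*-deficient library, 83.8%, against 40% if spread evenly. The value was chosen for the best agreement on these same genes, so these shares describe the fit. The agreement score was 37.9 in WT and 41.8 in the deficient library, and the best score elsewhere was 28.6 and 31.6. Intervals are 95% Clopper-Pearson, cover counting error only and use the longest transcript. The step was checked on simulated data. Gene models were GENCODE vM1 on NCBIM37, and 20285 genes, all 74 members included, were matched by symbol or older symbol. Promoters for printing were restricted to the 25 of 30 members of highest WT value that RefSeq's promoter table also lists and ranked on the highest CpG ratio over annotated starts, both decided after values were seen. Scripts ran under Python 3.11.15 with matplotlib 3.10.9, scipy 1.17.1, pandas 2.3.3 and numpy 2.4.6. Alternatives were other scalings, pseudocounts, thresholds, a background subtraction and other promoter starts.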

Additional observations from a re-analysis of the deposited data

How the results depend on the processing

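With the 75th percentiles of the libraries matched, 26 genes met the rule, 35.1% of the members and 3.03% of the abundant genes were at least 4-fold lower, and the median log2 ratio of the members was −1.88 rather than −2.26. With the same sum, these values were 8 genes, 10.8%, 0.814% and −1.60, and with the sums matched after leaving out the top 100 genes by mean they were 10 genes, 13.5%, 1.08% and −1.70. With the same median, 81.1% of the members and 8.06% of the abundant genes were at least 4-fold lower, and a pseudocount of 10 gave 81.1% of the members. These shifts follow from the factors and the pseudocount. Under the same sum, the median over all genes went from −0.20 to 0.46 (log2) and that of the abundant genes from −1.24 to −0.58. Subtraction of the olfactory receptor median gave 112 genes, a median of −2.50 and 18.9% of the abundant genes. A mean of at least 100 gave 127 genes (5.94%) and of at least 500 gave 26 genes (20.3%), while 3-fold gave 205 genes (28.01%) and 5-fold 29 genes (3.96%).

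The median transcript length of members was 3379 bases at means of at least 500, beside 4217 in the other abundant genes, and their median CpG ratio was 0.89 with the highest over all annotated starts, beside 0.91, a setting chosen after seeing the data. The cause was not tested. With the median in place of the longest transcript, 19 members had an interval above 4, also chosen after seeing the data. No paired analysis was possible because there is only 1 library of each genotype, without replicate numbers. Depth limits single genes most, since 44 of the members rest on fewer than 100 reads in the *Cxxc1*-deficient library.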
